A study of Mus musculus with 14 samples.

Results

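The late sterol enzymes carry out the reactions that turn lanosterol into cholesterol, and 8 of their genes were chosen by symbol: Cyp51, Tm7sf2, Msmo1, Nsdhl, Hsd17b7, Ebp, Sc5d and Dhcr7. They are 8 of the 17552 genes in the deposited expression table. Their expression was not used to choose them, but earlier results of these data were known at the time. All 8 passed a minimum of 100 counts in the 2 groups together, as did 13291 genes of the table.

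Liver mRNA came from male Apoe-deficient mice of strain C57BL/6, which lack apolipoprotein E, a protein that carries remnant lipoproteins back to the liver. The labels give an age of 8 weeks and 8 weeks of feeding, while the study's methods give a longer time on the diets. The control group received the Western diet and the other group the same diet with erythrodiol, a triterpene of the olive, at 10 mg/kg, so the deficiency and the diet are shared by both groups. Each group was sequenced as 7 libraries, each made from RNA of a few pooled animals, and the gene table holds 1 expected count per gene for each group.

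These expected counts added up to 122889032 for the control and to 124686047 for erythrodiol. The 7 control libraries and the 7 erythrodiol libraries mapped 122887639 and 124690110 read pairs to genes, so each gene value is a sum over the libraries of its group. Genes therefore have no replicates, no test between the groups was possible, and every interval given is a 95% counting interval that leaves out the spread between animals and libraries. Single libraries supplied 9.12% to 17.3% of the pairs of the control sum and 13.9% to 14.6% of the erythrodiol sum. Control libraries 1 to 4, which gave 55.5% of the control pairs, had a smaller share of reads mapped to a unique place in the genome than the lowest erythrodiol library, at 64.03%. How much each of these libraries added to the count of a given gene was not analysed here.

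Cholesterol synthesis runs from acetyl-CoA to lanosterol, the first sterol, and then through a series of reactions in the membrane of the endoplasmic reticulum that strip methyl groups from the ring system and move or reduce its double bonds. The liver is a main site of this synthesis. Many genes of the pathway are known targets of the sterol-sensing factor SREBP2, which acts at promoters together with the factors NF-Y and Sp1, and their mRNA is known to rise when the cell is short of sterols. In the deposited annotation, all 8 enzymes carry the term integral component of membrane, 6 endoplasmic reticulum and 5 cholesterol biosynthetic process.

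The promoter of every member held the NF-Y box, CCAAT, within 100 bases before a start of transcription, a window chosen after the matches were seen. In Dhcr7 the box lay before the third of its 3 starts alone. The stretches around the boxes are shown because the NF-Y box was the feature that the members shared near their starts. They come from the RefSeq promoters of GRCm38.p6, run 5′ to 3′ on the strand of the gene and hold 29 bases each, and the capitals mark the box, which reads ATTGG where it lies on the opposite strand.
Cyp51 (chr5:4104710-4104738, minus strand): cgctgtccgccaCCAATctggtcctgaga
Tm7sf2 (chr19:6067881-6067909, minus strand): ctcccagcgctgATTGGctactgtgctgg
Msmo1 (chr8:64733617-64733645, minus strand): gagtggggcggaCCAATtacgacaggcga
Nsdhl (chrX:72918489-72918517, plus strand): aagactagcctcATTGGgcaaaatcatgc
Hsd17b7 (chr1:169969201-169969229, minus strand): ggccgagccttgATTGGtcgaggtgcgcg
Ebp (chrX:8193551-8193579, minus strand): atccctgtactgATTGGttcgtcagattc
Sc5d (chr9:42264308-42264336, minus strand): cgccggctgctgATTGGccggctgcctgc
Dhcr7 (chr7:143830153-143830181, plus strand): aatccacttccgATTGGtcgtctgtgacc

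The box was on the strand of the gene in Cyp51 and Msmo1 and on the opposite strand in the other 6 members. Counted from the start of transcription, its first letter lay between -55 in Msmo1 and Ebp and -12 in Hsd17b7. Of the windows, those of Cyp51, Tm7sf2, Msmo1, Hsd17b7 and Dhcr7 also overlap an exon of the same gene in the GENCODE M21 annotation. The window of Tm7sf2 overlaps an exon of the neighbouring gene Vps51 as well. The longer stretches before the starts of Nsdhl and Ebp, 100 bases each with the same marking, are shown because these were the members with the highest and the lowest ratio of erythrodiol to control.

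Nsdhl (chrX:72918421-72918520, plus strand): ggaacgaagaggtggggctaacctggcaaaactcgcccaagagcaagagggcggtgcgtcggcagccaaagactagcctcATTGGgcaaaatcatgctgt
Ebp (chrX:8193513-8193612, minus strand): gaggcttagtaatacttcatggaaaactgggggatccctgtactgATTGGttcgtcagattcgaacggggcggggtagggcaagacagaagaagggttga

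Both stretches hold a single NF-Y box and a GC box, GGGCGG, and 57% of the bases before Nsdhl and 51% of those before Ebp were G or C. Motifs were searched on both strands over 300 bases, from 250 before to 50 after each start. For the 8 members 10 promoters were found, since Dhcr7 has 3 starts, and shares are given over the 10604 genes with at least 100 counts that had a promoter and over all 32851 promoters.

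Over the whole 300 bases, the NF-Y box was found in 8 of 8 members, in 43.0% of the genes with at least 100 counts and in 37.4% of all promoters. Within 100 bases before the start, a window chosen after the matches were seen, it was found in 8 of 8 members and in 26.1% of the genes with at least 100 counts. Of the 11 early enzymes of the pathway, 7 had a promoter in the table, and of these 6 held the box over the whole 300 bases and 5 within the 100 bases. The GC box, the site bound by Sp1, was also found in 8 of 8 members, against 66.0% of the genes with at least 100 counts and 35.7% of all promoters, but within 100 bases before the start it was found in 4 of 8 members and in 5299 of the 10604 genes. These shares describe letters in a window and are no evidence that a factor binds there.

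The sterol regulatory element, to which SREBP2 binds, was searched as TCACNCCAC. It was found without a mismatch in 0 of 8 members, and in 1.44% of the genes with at least 100 counts and 1.24% of all promoters. With up to 1 mismatch in its 8 fixed letters it was found in 5 members, Cyp51, Msmo1, Nsdhl, Hsd17b7 and Dhcr7, and in 29.1% of the genes with at least 100 counts and 24.2% of all promoters. Its core, CACCCCAC, which overlaps the element, was found in 0 of 8 members, in 3.78% of the genes with at least 100 counts and in 2.87% of all promoters. The E-box, CACGTG, was found in 3 members, Hsd17b7, Sc5d and Dhcr7, in 11.4% of the genes with at least 100 counts and in 7.15% of all promoters. The absence of a match says only that these letters are not in the window.

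**Figure D1:**
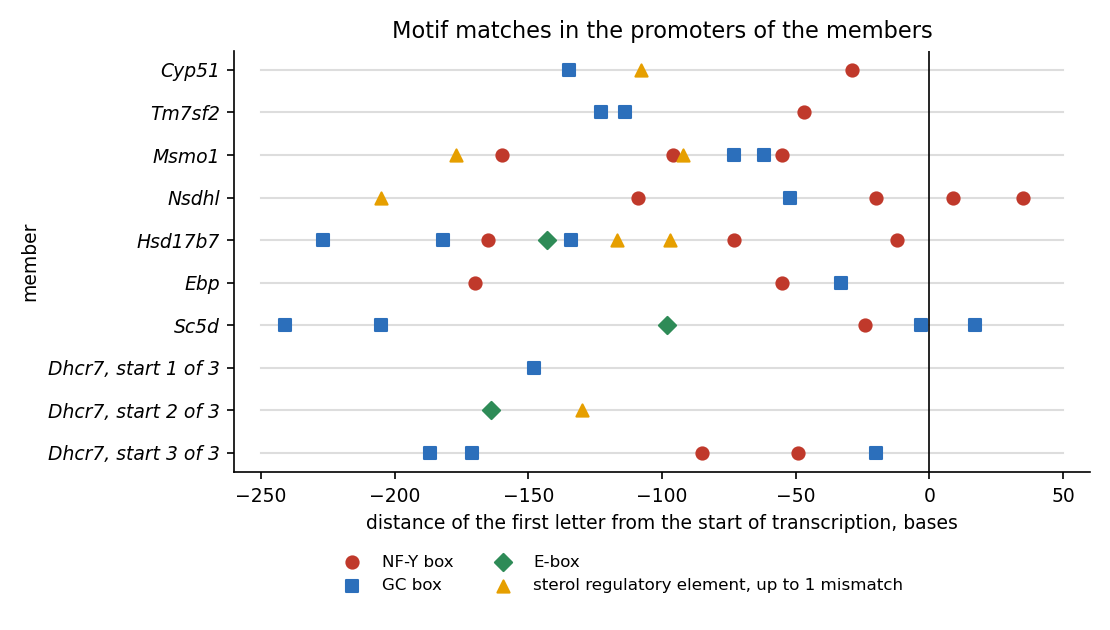
Positions of the motif matches in the promoters of the 8 members, in bases from the start of transcription (vertical line), with 1 row for each start site. Circles mark the NF-Y box, squares the GC box, diamonds the E-box and triangles the sterol regulatory element with up to 1 mismatch, and each member has at least 1 circle within 100 bases before a start, in Dhcr7 at the third start alone.

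All 8 late sterol enzymes had a higher scaled count with erythrodiol than in the control, by 1.12-fold in Ebp to 1.73-fold in Nsdhl. Of all genes with at least 100 counts, 71.2% were higher with erythrodiol when each group was scaled by its total, with a median log2 ratio of 0.16. The median log2 ratio of the 8 members was 0.52, a fold of 1.44. Cyp51, Nsdhl and Dhcr7 were at least 1.5-fold higher, that is 3 of 8 members against 2.55% of all genes, and 0 members were at least 2-fold higher against 0.218%. At least 1.5-fold lower were 0 members and 3.14% of all genes. These shares depend on the scale: with the median of all genes set to 0, the genes at least 1.5-fold higher went from 339 to 115, those at least 1.5-fold lower from 417 to 819, and the members at least 1.5-fold higher from 3 to 1, Nsdhl.

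The ratios of all genes went with gene length. The median log2 ratio of all genes went from -0.18 in the shortest of 10 classes of length, 333 to 1211 bases, to 0.33 in the longest, 6116 to 26655 bases, and the share of higher genes from 33.7% to 91.0%. Each member was therefore set beside the 200 genes nearest to it in length. All 8 were above the median of these genes, 7 were above at least 180 of the 200 and 6 above at least 190. Relative to that median, the members' log2 ratios had a median of 0.38, and 1 of 8, Nsdhl, was at least 1.5-fold higher, against 1.08% of all genes. The scale also matters for Ebp, whose log2 ratio was -0.0018 with the median of all genes set to 0 and -0.010 with the upper quartile, while the other 7 members stayed above 0 under every scaling tried.

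**Figure D2:**
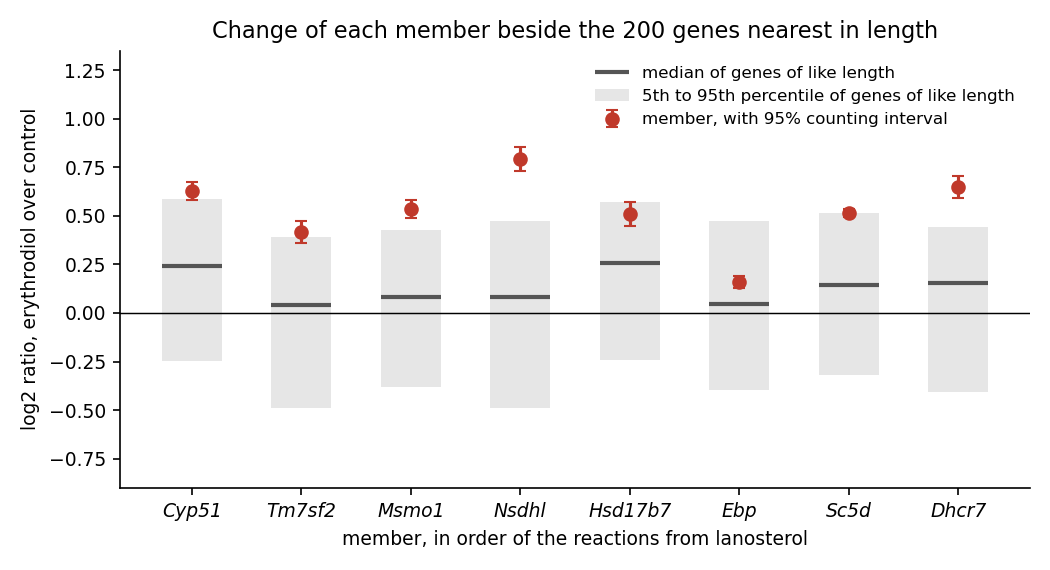
Log2 ratio of erythrodiol to control for each member (red, with the 95% counting interval), beside the median (dark line) and the 5th to 95th percentile (grey bar) of the 200 genes nearest in length, in order of the reactions from lanosterol. The points for Cyp51, Tm7sf2, Msmo1, Nsdhl, Sc5d and Dhcr7 lie above the grey bar, that of Sc5d only just, and those of Hsd17b7 and Ebp lie within it.

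The liver label was checked with markers of its cell types. The 8 hepatocyte markers were all present and summed to 111289 CPM (counts of a group scaled to a total of 1000000) in the control and 113783 with erythrodiol, with 7 higher, 1 lower and a median log2 ratio of 0.20. In bulk liver, fewer cells of a type and less RNA per cell cannot be told apart. All 6 Kupffer cell markers were lower with erythrodiol, 5 of them at least 1.5-fold, with a median log2 ratio of -0.67 and a sum that went from 869 to 535 CPM.

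All 5 bile duct markers were lower, 2 of them at least 1.5-fold, with a median of -0.55 and a sum of 116 and 79.1 CPM. The counting intervals of Krt7, 0.65 to 1.02-fold, and of Sox9, 0.86 to 1.03-fold, included no change. Most of the sum came from Spp1, with 12503 control counts and 8363 erythrodiol counts. Of the 4 neutrophil markers 2 had at least 100 counts and both, S100a8 and S100a9, were at least 1.5-fold lower, with a median of -1.15. Of the other 2, Ly6g had 38.98 control counts and 45.45 erythrodiol counts and Ngp 36 and 19, and the sum over all 4 was 9.67 CPM in the control and 4.62 with erythrodiol. Medians were 0.14 for the 5 endothelial markers, 0.00 for the 5 stellate cell markers and 0.03 for the 5 lymphocyte markers, each with 3 higher and 2 lower. Against genes of like length, all 6 Kupffer cell, 5 bile duct and 5 stellate markers and the 2 neutrophil markers with at least 100 counts lay below the median, as did 4 of 5 endothelial, 3 of 8 hepatocyte and 2 of 5 lymphocyte markers. No marker on these lists was at 0 in either group. The part that these other cells have in the values of the members was not tested.

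The first 2 reactions open the segment. Cyp51 encodes the cytochrome P450 that removes the first of the extra methyl groups of lanosterol, and Tm7sf2 the reductase that removes the double bond which this reaction leaves. Cyp51 (NCBI gene 13121; GRCm38, chr5:4080674-4104697, minus strand) had 6204 control counts and 9723 erythrodiol counts. This was 1.54-fold higher, with an interval of 1.496 to 1.595, and its log2 ratio of 0.63 stood above 196 of the 200 genes of like length. Its annotated span overlaps that of Akap9 on the opposite strand over 637 bases, and whether the counting used strand is not given in the sources used here.

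Tm7sf2 (NCBI gene 73166; chr19:6062821-6067850, minus strand, sharing 9 bases with Vps51 on the same strand) had 4126 control counts and 5590 erythrodiol counts, 1.34-fold higher with an interval of 1.28 to 1.39. At 1496 bases it was the shortest member, and genes of like length had a median log2 ratio of 0.04, so that its own log2 ratio of 0.42 lay above 193 of 200. The counting intervals of the ratios of Cyp51 and Tm7sf2 did not overlap. Cyp51, at 4353 bases, was compared with longer genes, whose median was 0.24, and relative to genes of like length the pair had log2 ratios of 0.39 and 0.38.

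Msmo1, Nsdhl and Hsd17b7 act as a group that removes the remaining pair of methyl groups. Msmo1 encodes the oxidase that attacks the methyl group, Nsdhl the dehydrogenase that releases it as carbon dioxide, and Hsd17b7 the reductase that restores the hydroxyl group of the sterol. All 3 were higher with erythrodiol, and Nsdhl had the highest ratio of all members.

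Msmo1 (NCBI gene 66234; chr8:64718123-64733578, minus strand) had 5957 control counts and 8763 erythrodiol counts, 1.45-fold higher with an interval of 1.403 to 1.499. Nsdhl (NCBI gene 18194; chrX:72918521-72958528, plus strand) had 3242 control counts and 5693 erythrodiol counts, 1.73-fold higher with an interval of 1.66 to 1.81. Hsd17b7 (NCBI gene 15490; chr1:169949535-169969242, minus strand) had 3741 control counts and 5402 erythrodiol counts, 1.42-fold higher with an interval of 1.36 to 1.48. The interval of Nsdhl was clear of those of all other members, whereas those of Msmo1 and Hsd17b7 overlapped each other.

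Nsdhl exceeded 198 of 200 genes of like length, and relative to their median its log2 ratio was 0.71. Msmo1 exceeded 192 of 200, with a relative log2 ratio of 0.46. Hsd17b7, which at 4516 bases is the longest member, exceeded 183 of 200, and its relative log2 ratio was 0.25, as genes of its length had a median of 0.26. In these 3 genes of a single reaction cycle, the erythrodiol counts of Nsdhl and Hsd17b7 lay close together only before division by length. Per kilobase, Nsdhl stood at 20.6 CPM and Hsd17b7 at 9.59 CPM with erythrodiol, the latter the lowest of all members.

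The last 3 members rearrange the double bonds of the ring. Ebp encodes the isomerase that shifts the double bond, Sc5d the desaturase that adds another one beside it, and Dhcr7 the reductase that removes the shifted bond and yields cholesterol or, before the side chain is reduced, desmosterol. These 3 genes hold both the smallest ratio and one of the larger ratios.

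Ebp (NCBI gene 13595; chrX:8185329-8193512, minus strand) had 16526 control counts and 18736 erythrodiol counts, 1.12-fold higher with an interval of 1.09 to 1.14. Its log2 ratio of 0.16 was equal, to 2 decimals, to the median of all genes, and it exceeded 139 of 200 genes of like length. The interval of its ratio overlapped that of no other member, so its smaller difference is beyond counting error.

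Sc5d (NCBI gene 235293; chr9:42251592-42264300, minus strand) had 36208 control counts and 52444 erythrodiol counts, 1.43-fold higher with an interval of 1.41 to 1.45. Dhcr7 (NCBI gene 13360; chr7:143823167-143848410, plus strand) had 3942 control counts and 6275 erythrodiol counts, 1.57-fold higher with an interval of 1.51 to 1.63. Sc5d stood above 190 of 200 and Dhcr7 above 197 of 200 genes of like length. The neighbours in the pathway Ebp, Sc5d and Dhcr7 thus differed from one another in ratio by more than counting error. Of the 28 pairs among the 8 members, the intervals overlapped in 6, which were Cyp51 with Msmo1 and with Dhcr7, Hsd17b7 with Tm7sf2, Msmo1 and Sc5d, and Msmo1 with Sc5d.

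The members also spanned a wide range of levels, here given as CPM per kilobase of length. Sc5d was the highest at 112 in the control and 161 with erythrodiol, followed by Ebp at 76.5 and 85.5. Msmo1 stood at 26.6 in the control and 38.5 with erythrodiol, and Tm7sf2 at 22.4 and 30.0. Sc5d and Ebp were thus well apart from the other 6 members in both groups.

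Dhcr7 had a level of 13.4 in the control and 21.0 with erythrodiol, Nsdhl of 11.9 and 20.6, and Cyp51 of 11.6 and 17.9. Hsd17b7 was the lowest at 6.74 in the control and 9.59 with erythrodiol. The order of the 8 levels was the same in both groups, and neighbours in it whose counting intervals overlapped were Nsdhl and Cyp51 in the control and Dhcr7 and Nsdhl with erythrodiol. Beyond counting error, Nsdhl stood above Cyp51 with erythrodiol alone.

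**Figure D3:**
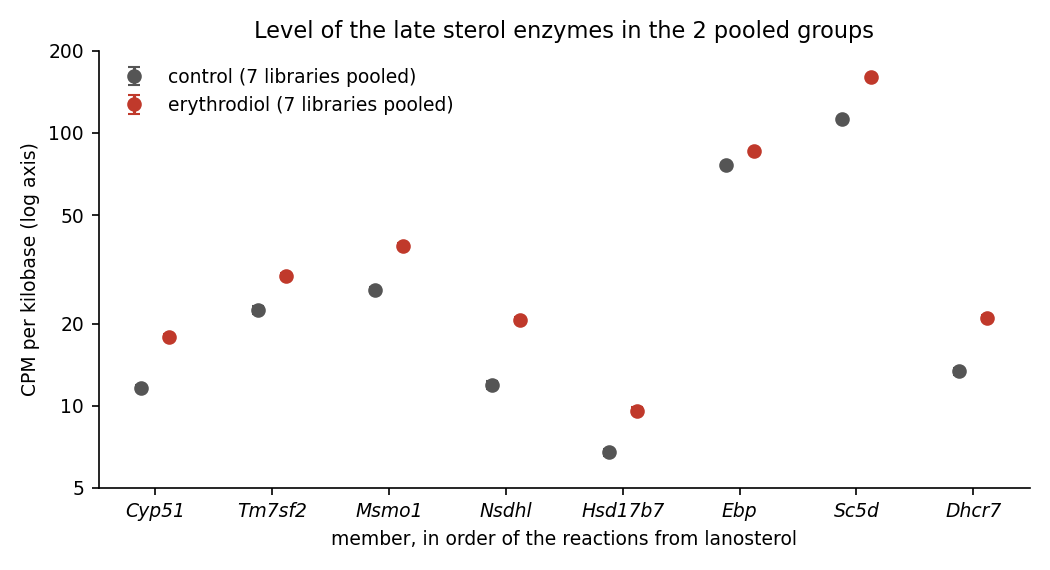
Level of each member in the pooled control (grey) and erythrodiol (red) groups, in CPM per kilobase on a log axis, with 95% counting intervals that are mostly smaller than the points. Sc5d and Ebp stand highest in both groups, and Ebp shows the smallest gap between its points.

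In all, the members had 79946 control counts and 112626 erythrodiol counts, and the summed scaled count was 1.39-fold higher. Sc5d made up 45.3% of the control sum and 46.6% of the erythrodiol sum, and without it the sum was 1.36-fold higher. Ebp, the member that differed least, went from 20.7% to 16.6% of the sum. Sc5d therefore weighs most in the sum, while the median of 0.52 gives each enzyme the same weight.

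All 8 members had expected counts that were whole in both groups to within 0.005, as had 79.5% of the genes with at least 100 counts. Of the 16 listed splicing events between the groups, 0 fell in a member. Of the coding transcripts that the authors assembled beyond the reference, 1 belonged to a member, Dhcr7, with 8 exons and 2402 spliced bases (chr7:143833850-143848410). Its 7 junctions and 7 of its 8 exons are in GENCODE M21, and its first exon runs from 143833850 to 143833936.

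**Figure D4:**
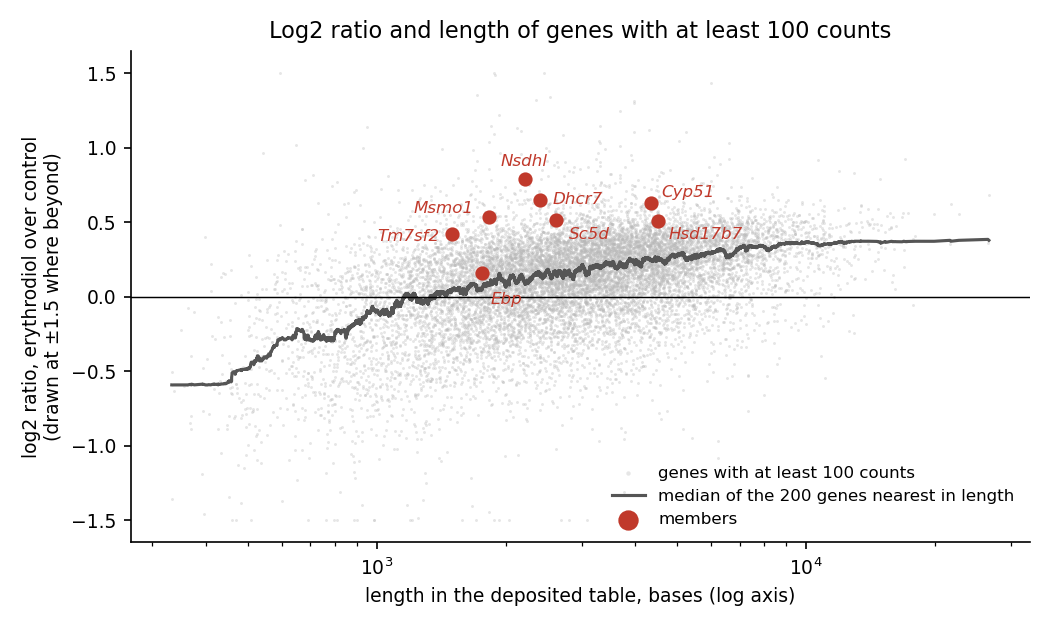
Log2 ratio of erythrodiol to control against gene length on a log axis for all genes with at least 100 counts (light points), the median of the 200 genes nearest in length (dark line) and the 8 members (red). The median line climbs with length and passes through 0 in the shorter genes, and all 8 members lie above it, Ebp closest to it.

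The 11 early enzymes, from acetyl-CoA to lanosterol, were described in the same way. All 11 were higher with erythrodiol, against 71.2% of all genes with at least 100 counts, and 5 were at least 1.5-fold higher, against 2.55%. The 11 had a median log2 ratio of 0.55, and of 0.34 relative to genes of like length. All 11 were also above the median of genes of their length. Among the 5 past 1.5-fold were Idi1, the isomerase of the isoprenoid units, at a log2 ratio of 0.87, Sqle, which oxidises squalene, at 0.91, Mvd, which yields the first of these units, at 0.63, and Lss, which closes the rings to lanosterol, at 0.63. Relative to genes of like length, Idi1 stood at 0.72 and Sqle at 0.74. Mvd at 0.575 and Lss at 0.34 were then below 1.5-fold, a log2 ratio of 0.585. The early and the late enzymes thus had medians within 0.05 of each other on both scales, and the values of 9 of the 11 early enzymes lay within the range of the late ones.

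Other genes of the late segment had a smaller median log2 ratio than the members and went in both directions. Of 5 on the list, 4 were in the table, 3 were higher and 1 lower, and 0 differed by 1.5-fold, with a median log2 ratio of 0.17 and of 0.06 relative to genes of like length. Ebpl, a relative of Ebp, had the lowest log2 ratio at -0.45, from 8432 and 6252 counts. It was above 6 of 200 genes of like length, and relative to their median its log2 ratio was -0.60. Lbr, which encodes a reductase of the same activity as Tm7sf2, had a log2 ratio of 0.21, and Erg28, a scaffold of the demethylation enzymes, of 0.12.

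Several members take electrons from other membrane proteins, Cyp51 from the reductase Por and Msmo1 and Sc5d from cytochrome b5. Of the 9 genes on the list of electron donors and partners, 8 had at least 100 counts. Of these 8, 6 were higher and 2 lower, beside 71.2% higher among all genes with at least 100 counts. The 8 had a median log2 ratio of 0.28, and of 0.09 relative to genes of like length, above whose median 5 lay and below it 3. Por was 1.54-fold higher, from 23187 control counts and 36205 erythrodiol counts, a fold equal to that of Cyp51 to 2 decimals. Cyb5a, the microsomal cytochrome b5, had 134027 control counts and 90395 erythrodiol counts, a log2 ratio of -0.59. With a length of 741 bases, however, it was above 53 of 200 genes of like length, whose median was -0.29.

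Of the 16 genes of sterol control, 13 were higher and 3 lower, beside 71.2% higher among all genes with at least 100 counts. The 16 had a median log2 ratio of 0.28, and of 0.04 relative to genes of like length, above whose median 8 lay and below it 8. Stard4, a carrier of sterols in the cytosol, had 6710 control counts and 10638 erythrodiol counts, a log2 ratio of 0.64. Insig2, which holds the SREBP complex in the endoplasmic reticulum, had 27992 control counts and 18422 erythrodiol counts, a log2 ratio of -0.62, and was above 1 of 200 genes of like length.

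The list of cholesterol exit held 14 genes. They form bile acids, oxysterols or esters or export sterol, apart from the nuclear receptors Nr1h3 and Nr1h2. Of the 14, 13 had at least 100 counts. Of these 13, 10 were higher and 3 lower, beside 71.2% higher among all genes with at least 100 counts. The 13 had a median log2 ratio of 0.22, and of 0.11 relative to genes of like length, above whose median 8 lay and below it 5. Cyp7a1, the rate-limiting enzyme of bile acid synthesis, had 11875 control counts and 28636 erythrodiol counts, a log2 ratio of 1.25. Cyp46a1, a sterol hydroxylase, had a log2 ratio of 0.60 from 582 and 897 counts.

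**Figure D5:**
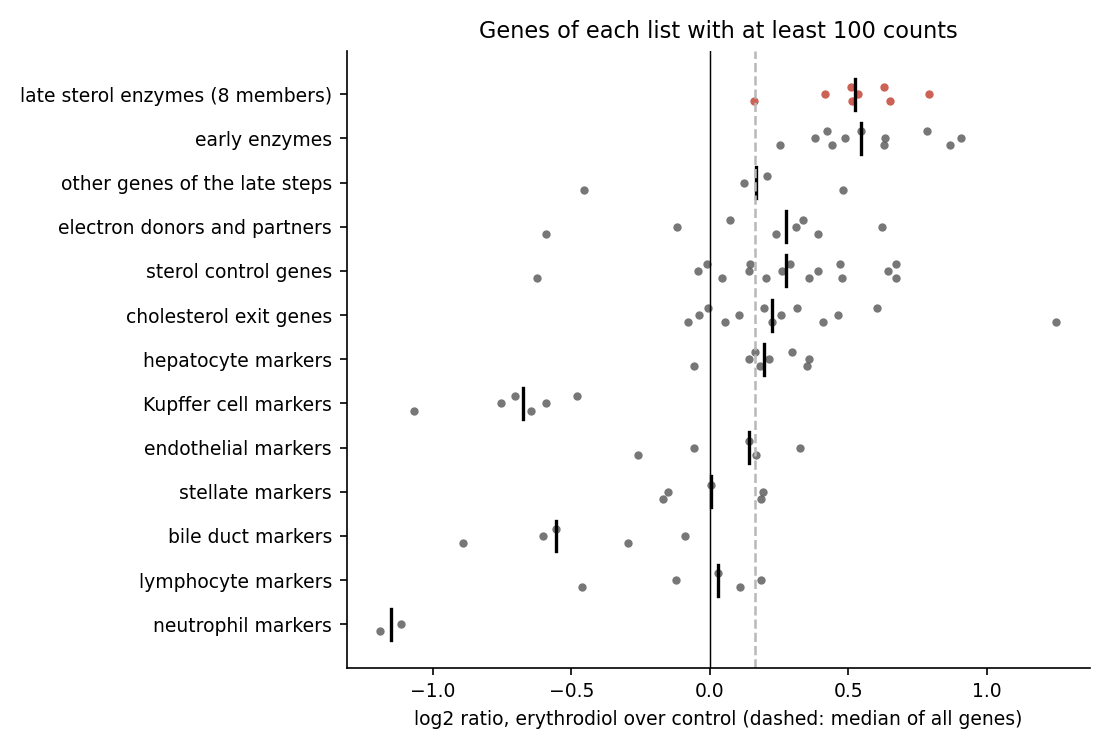
Log2 ratios of erythrodiol to control for the members (red) and the genes of the other lists (grey) with at least 100 counts, with the median of each list as a black bar and the median of all genes, 0.16, as a dashed line. The late and the early enzymes have medians of 0.52 and 0.55, and the Kupffer cell, bile duct and neutrophil markers with at least 100 counts lie to the left of 0.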

How the data were processed

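Liver RNA was sequenced as 14 paired-end libraries, 7 per group. Genome alignment by the authors used HISAT, transcript assembly used StringTie and Cufflinks tools, and counting on reference and added coding transcripts used Bowtie2 and RSEM. Versions are not given in the sources used here. The deposited gene table holds expected counts, not normalized, summed by the authors over the libraries of a group. Its columns with the authors' log2 ratio, p-value and q-value were not used. The authors also deposited the number of clean reads per library, a count, and mapping rates in percent. Per-library totals of splicing, SNPs and genes were not used.

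Counts were divided by the total of their group. Intervals are exact (Clopper-Pearson, at 95%, on rounded counts) and cover counting error only. Ratios relative to length are differences in log2 from the median of the 200 genes nearest in length, with fewer genes at the ends of the range of lengths. Lists were described by counts and medians, with no test. From each list the genes with a 1.5-fold difference were named, and otherwise the highest and lowest, except for a few genes whose values are not reported here. The members and lists were chosen with earlier results of these data known. March6 was matched by gene ID. The computation was tested on simulated data. The software was R 4.3.3 with edgeR 4.0.16 (for its scaling factors alone) and Python 3.11.15 with scipy 1.17.1, numpy 2.4.6, matplotlib 3.10.9 and pandas 2.3.3.

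Clean reads ran from 34856340 to 55244294 per control library (median 48008204) and from 47669656 to 48058606 per erythrodiol library (median 47982680). Coordinates are those of GRCm38. Alternatives were 3 other scalings, 3 references for length, a pseudocount, other minimum counts and levels not divided by length.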

Additional observations from a re-analysis of the deposited data

Results flagged for a closer look

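Control library 3 stood far from the other control libraries in 2 of the 6 sets of library values that were looked at. Of its clean reads 76.66% mapped to the genome, where the next lowest control library had 91.98%, and the gap was 0.852 of the range of the group. Of its clean reads 64.33% mapped to genes, where the next lowest had 74.39%, and the gap was 0.588 of the range. Both gaps pass Dixon's 95% limit for 7 values, which chance alone passes in about 1 of 20 groups. This library is 1 of the 7 that add up to the control count of every late sterol enzyme, and values of the members without it could not be had.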

How the results depend on the processing

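No paired analysis was possible because the gene table holds 1 pooled column per group, and for the same reason no library could be left out. The median log2 ratio of the 8 members, 0.52, was 0.36 with the median of all genes set to 0, 0.37 with the trimmed mean of M values, 0.35 with the upper quartile, 0.38 relative to 200 or 500 genes of like length and 0.36 relative to genes of like length and level. The early enzymes went from 0.55 to 0.38, 0.39, 0.38, 0.34, 0.33 and 0.33 in the same order. Under each of these 6 settings 1 member in place of 3 was at least 1.5-fold higher. A pseudocount of 1 left these values the same. Members higher were 7 of 8 with the median of all genes set to 0 and with the upper quartile, and 8 under the other settings. Of 56 recomputed ratios of single members, 54 were above 0, and they ranged from -0.01 to 0.79.

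Setting the median of all genes to 0 shifts every log2 ratio by 0.16. Of the genes past 1.5-fold, 44.8% were higher with the scaling by totals (339 against 417 lower), 12.3% with the median set to 0 (115 against 819), 13.0% with the trimmed mean of M values, 11.2% with the upper quartile, and 23.8% and 22.9% relative to 200 and 500 genes of like length. The share of genes past 1.5-fold in either direction was 5.69%, and 7.03% with the median set to 0, 4.51% relative to like length, 10.4% with at least 10 counts and 13.2% with no minimum. Past 2-fold it was 0.767%, and 1.12%, 0.602%, 3.15% and 5.23%. Not divided by length, 2 of 8 members kept their place in the order of control levels. The cause of these differences was not tested. Depth limits the members little, since each had at least 3242 counts per group, while the spread between animals is not known.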
